A study of Homo sapiens with 6 samples.

Results

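Chromatin accessibility was examined at 10 genes that encode structural proteins of the sarcomere, TTN, NEB, ACTA1, ACTC1, ACTN2, DES, MYOM1, MYBPC1, MYOZ2 and LDB3. Peaks that overlapped in any of the 6 libraries were joined into one region, and a region was assigned to a gene when its highest summit lay in the gene body or within 50 kb of it. This gave 95 of the 105569 regions of the series, of which 50 had a peak in all 6 libraries. The genes were given by name and the regions by position, and no measured value entered the rule, although the gene list was drawn up with earlier results of these data known. Most of them belong to the thin filament and the Z-disc, but MYBPC1 and MYOM1 encode proteins of the myosin filament and its M-band, titin runs from the Z-disc to the M-band, and desmin surrounds the Z-disc.

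The libraries came from RH30 cells, an established fusion-positive rhabdomyosarcoma line, which is a tumor line of skeletal muscle lineage. All cells were transduced with Cas9. The vector group (n = 3) carried non-targeting sgRNA scramble guides and the MyoD-deleted group (n = 3) carried sgRNAs against MyoD, the factor that directs the skeletal muscle program. The comparison asks how open chromatin differs once MyoD is removed. Whether the cells of each group were a pool or a clone and how long after transduction they were taken is not given in the sources used here. The sources differ on whether the cells carried the IκBα super-repressor, since the results text of the study names RH30-SR cells and its methods and the labels name RH30. The 3 replicates of a group are labelled as biological replicates, without a statement of separate transductions, so p-values measure the spread between these libraries.

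ATAC-seq inserts sequencing adapters into open chromatin with the Tn5 transposase, so that a peak marks a stretch of DNA depleted of nucleosomes in many of the cells. Libraries held 63140 to 74121 peaks in vector cells and 73745 to 80608 in MyoD-deleted cells, and the labels state only a minimum number of reads shared by all libraries, so the read total of each library is unknown. As a check of the labelled lineage, 7 of 7 muscle-lineage genes (MYOD1, MYOG, MYF5, CDH15, CHRNA1, FGFR4 and DES) had a region within 2 kb of their start in all vector libraries, against 0 of 6 genes of blood, epithelium, liver or endothelium. At MYOD1 itself, the region at the start had heights of 2.75, 2.84 and 2.94 in vector replicates 1, 2 and 3 and 2.14, 2.50 and 2.43 in MyoD-deleted replicates, on the scale explained below. This is accessibility, not expression, so it does not measure how much MyoD was left.

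The sarcomere is the contractile unit of striated muscle. Thin filaments of actin, with nebulin along their length, are anchored in the Z-disc by alpha-actinin and slide past filaments of myosin, which titin holds in place and which are cross-linked at the M-band. MyoD and its relatives bind short sequences called E boxes in regulatory DNA of muscle genes, often with the palindrome CAGCTG, and they act beside MEF2, SRF, which binds the CArG box, and TEAD factors. AP-1, a dimer of Fos and Jun proteins, binds TGANTCA and is active in many proliferating cells.

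The sequences at the centre of the results are shown first. The first 4 are the 250 bases before the start of members whose start lay in a region called in all 6 libraries, from RefSeq (GRCh38.p14, 5′ to 3′ on the strand of the gene), and the last 4 are 201 bases centred on a summit (hg38, plus strand), where a region was lost or changed. They lie at chr15:34795550-34795799 (ACTC1, minus strand), chr2:151734477-151734726 (NEB, minus strand), chr1:236686249-236686498 (ACTN2, plus strand), chr4:119135582-119135831 (MYOZ2, plus strand), chr10:86652645-86652845 (upstream of LDB3), chr18:3179554-3179754 (MYOM1 intron 5), chr1:236716289-236716489 (ACTN2 intron 1) and chr2:219469481-219469681 (downstream of DES). The last 3 were chosen after their values were seen, and the DES region also because it held an AP-1 site. The larger increases, 19 kb upstream of LDB3 and 11 kb upstream of MYOM1, held none of the searched motifs and are not shown. Capitals mark matches to the searched motifs on either strand: the CArG box in ACTC1, the E box CAGGTG in NEB, the E box CAGCTG in ACTN2, and a MEF2 site followed by CAGCTG in MYOZ2. In the summit windows they mark CAGCTG upstream of LDB3, both E boxes and a TEAD site on the minus strand in MYOM1, a pair of CAGCTG in ACTN2, and the AP-1 site TGAGTCA near DES. The starts of LDB3 and DES also lay in regions called in all 6 libraries, but their promoters are not shown. No DES promoter was available from RefSeq, and that of LDB3 held a CArG box, an AP-1 site and no E box.
ACTC1 promoter: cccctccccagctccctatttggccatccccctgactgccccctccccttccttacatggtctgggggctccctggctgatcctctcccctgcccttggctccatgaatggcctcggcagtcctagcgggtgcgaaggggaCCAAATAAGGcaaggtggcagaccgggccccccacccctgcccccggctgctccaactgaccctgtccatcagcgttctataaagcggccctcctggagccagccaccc
NEB promoter: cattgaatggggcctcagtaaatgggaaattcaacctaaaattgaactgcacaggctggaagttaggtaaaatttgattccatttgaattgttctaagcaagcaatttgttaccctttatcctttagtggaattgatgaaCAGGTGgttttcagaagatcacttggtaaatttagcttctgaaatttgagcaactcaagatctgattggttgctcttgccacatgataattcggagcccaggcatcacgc
ACTN2 promoter: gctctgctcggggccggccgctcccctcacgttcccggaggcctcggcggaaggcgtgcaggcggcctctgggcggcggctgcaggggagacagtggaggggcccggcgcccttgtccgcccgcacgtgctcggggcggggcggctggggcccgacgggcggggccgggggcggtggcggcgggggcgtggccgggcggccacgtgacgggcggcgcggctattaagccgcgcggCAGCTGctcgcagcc
MYOZ2 promoter: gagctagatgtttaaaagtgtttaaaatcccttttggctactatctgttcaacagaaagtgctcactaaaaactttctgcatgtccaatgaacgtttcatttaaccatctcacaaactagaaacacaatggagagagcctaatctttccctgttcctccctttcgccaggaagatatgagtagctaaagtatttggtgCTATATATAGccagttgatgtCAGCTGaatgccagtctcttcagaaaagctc
LDB3 upstream, lost: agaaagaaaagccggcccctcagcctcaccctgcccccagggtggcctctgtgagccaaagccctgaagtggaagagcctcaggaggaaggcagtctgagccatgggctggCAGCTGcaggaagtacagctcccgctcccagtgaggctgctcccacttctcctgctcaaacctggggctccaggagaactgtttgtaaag
MYOM1 intron 5, lower: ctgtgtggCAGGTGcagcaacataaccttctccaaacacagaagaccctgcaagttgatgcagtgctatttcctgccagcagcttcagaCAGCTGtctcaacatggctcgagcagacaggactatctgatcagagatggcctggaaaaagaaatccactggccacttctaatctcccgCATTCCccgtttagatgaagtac
ACTN2 intron 1, lower: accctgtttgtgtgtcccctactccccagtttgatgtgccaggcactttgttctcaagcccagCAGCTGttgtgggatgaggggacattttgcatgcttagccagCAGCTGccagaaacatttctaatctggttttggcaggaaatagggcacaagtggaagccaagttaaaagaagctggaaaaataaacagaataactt
DES downstream, higher: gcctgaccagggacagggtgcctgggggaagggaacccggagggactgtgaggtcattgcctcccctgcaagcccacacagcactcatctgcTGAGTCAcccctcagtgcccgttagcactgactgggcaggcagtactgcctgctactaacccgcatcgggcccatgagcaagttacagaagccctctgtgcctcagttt

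The height of a region in a library is the log2 of the highest pileup of its peaks over the smallest background of that library, centred so that 0 is the median of the regions called in all 6 libraries. Uncentred, the median region differed by 0.19 (log2), with MyoD-deleted above vector libraries, and all changes below are relative to it. Changes are MyoD-deleted minus vector. They were tested with limma, with Benjamini-Hochberg adjustment over 47885 regions and a threshold of 0.05. A region was called lost when it had a peak in 3 of 3 vector and 0 of 3 MyoD-deleted libraries, and gained in the reverse case.

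Across the 10 genes, accessible regions fell in height more often than they rose, and few appeared or disappeared. Of the 50 regions called in all 6 libraries, 18 (36%) fell, against 12.8% of all such regions, and 6 (12%) rose, against 11.4%. Every MyoD-deleted library lay below every vector library at 20 of the 50 regions, against 18.1% of all such regions. Every one lay above at 10 of the 50, against 19.8%. Lost regions numbered 1 of 95 (1.05%, against 1.78% of all regions) and gained regions 3 (3.16%, against 4.56%). Neither share was above the background in this main setting. Gained regions numbered 6 without vector replicate 1 and 5 without MyoD-deleted replicate 2 or 3, and lost regions 3 without vector replicate 3 and 2 without MyoD-deleted replicate 1 or 3. The median change of the 50 regions was -0.15 against 0.04 for all regions, and it stayed negative in ranks of fold enrichment and of −log10 p, but was 0.04 without centring, where all regions had 0.23. Without centring 10 fell and 8 rose, against 8.03% and 24.7% of all regions, and with ranks of fold enrichment 4 fell and 5 rose, against 4.67% and 4.12%. Regions at the start of a neighbouring gene made up 11 of the 95, and without them 17 of 41 fell and 6 rose.

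**Figure D1:**
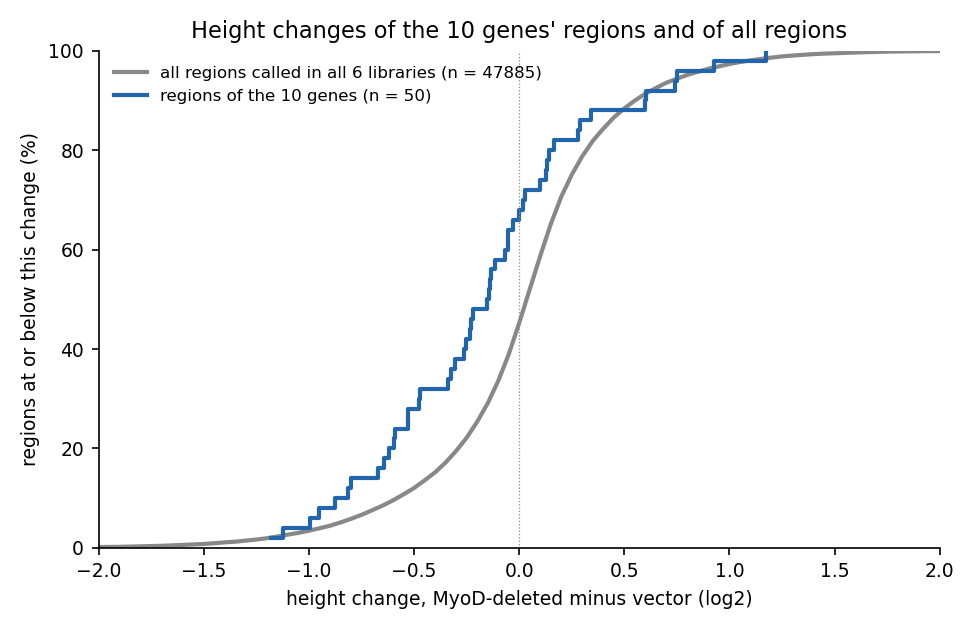
Cumulative share of regions (vertical axis, %) at or below a given height change (horizontal axis, MyoD-deleted minus vector, log2) for the 50 regions of the 10 genes (blue steps) and for all 47885 regions called in all 6 libraries (grey line). The blue steps lie above the grey line over most of the range, with medians of -0.15 and 0.04, and meet it above a change of about 0.5.

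Decreases were found at the starts, in the bodies and outside the genes, whereas all 6 increases lay outside the gene bodies after centring. At the starts of the canonical transcripts, 8 regions within 2 kb of a start were called in all 6 libraries, and 5 fell, 0 rose and all 8 had a negative change, with a median of -0.50. That median was -0.31 without centring and -0.33 with ranks of fold enrichment, where 3 and 1 of the 8 fell. Inside gene bodies, 4 of 10 fell and 0 rose (median -0.03, but 0.17 without centring, where 3 fell and 1 rose). Upstream of the genes, 4 of 14 fell and 5 rose (median -0.09, but 0.10 without centring, where 3 fell and 5 rose). In ranks of fold enrichment the counts were 2 and 0 in gene bodies and 1 and 4 upstream. Downstream 4 of 9 fell and 1 rose. At the starts of neighbouring genes, 1 of 9 fell and 0 rose. Of all regions called in all 6 libraries, 12.8% fell and 11.4% rose. Without centring these shares were 8.03% and 24.7%, and in ranks of fold enrichment 4.67% and 4.12%. Shares for starts, bodies or flanks over the whole series were not counted, and the differences between these classes were not tested.

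**Figure D2:**
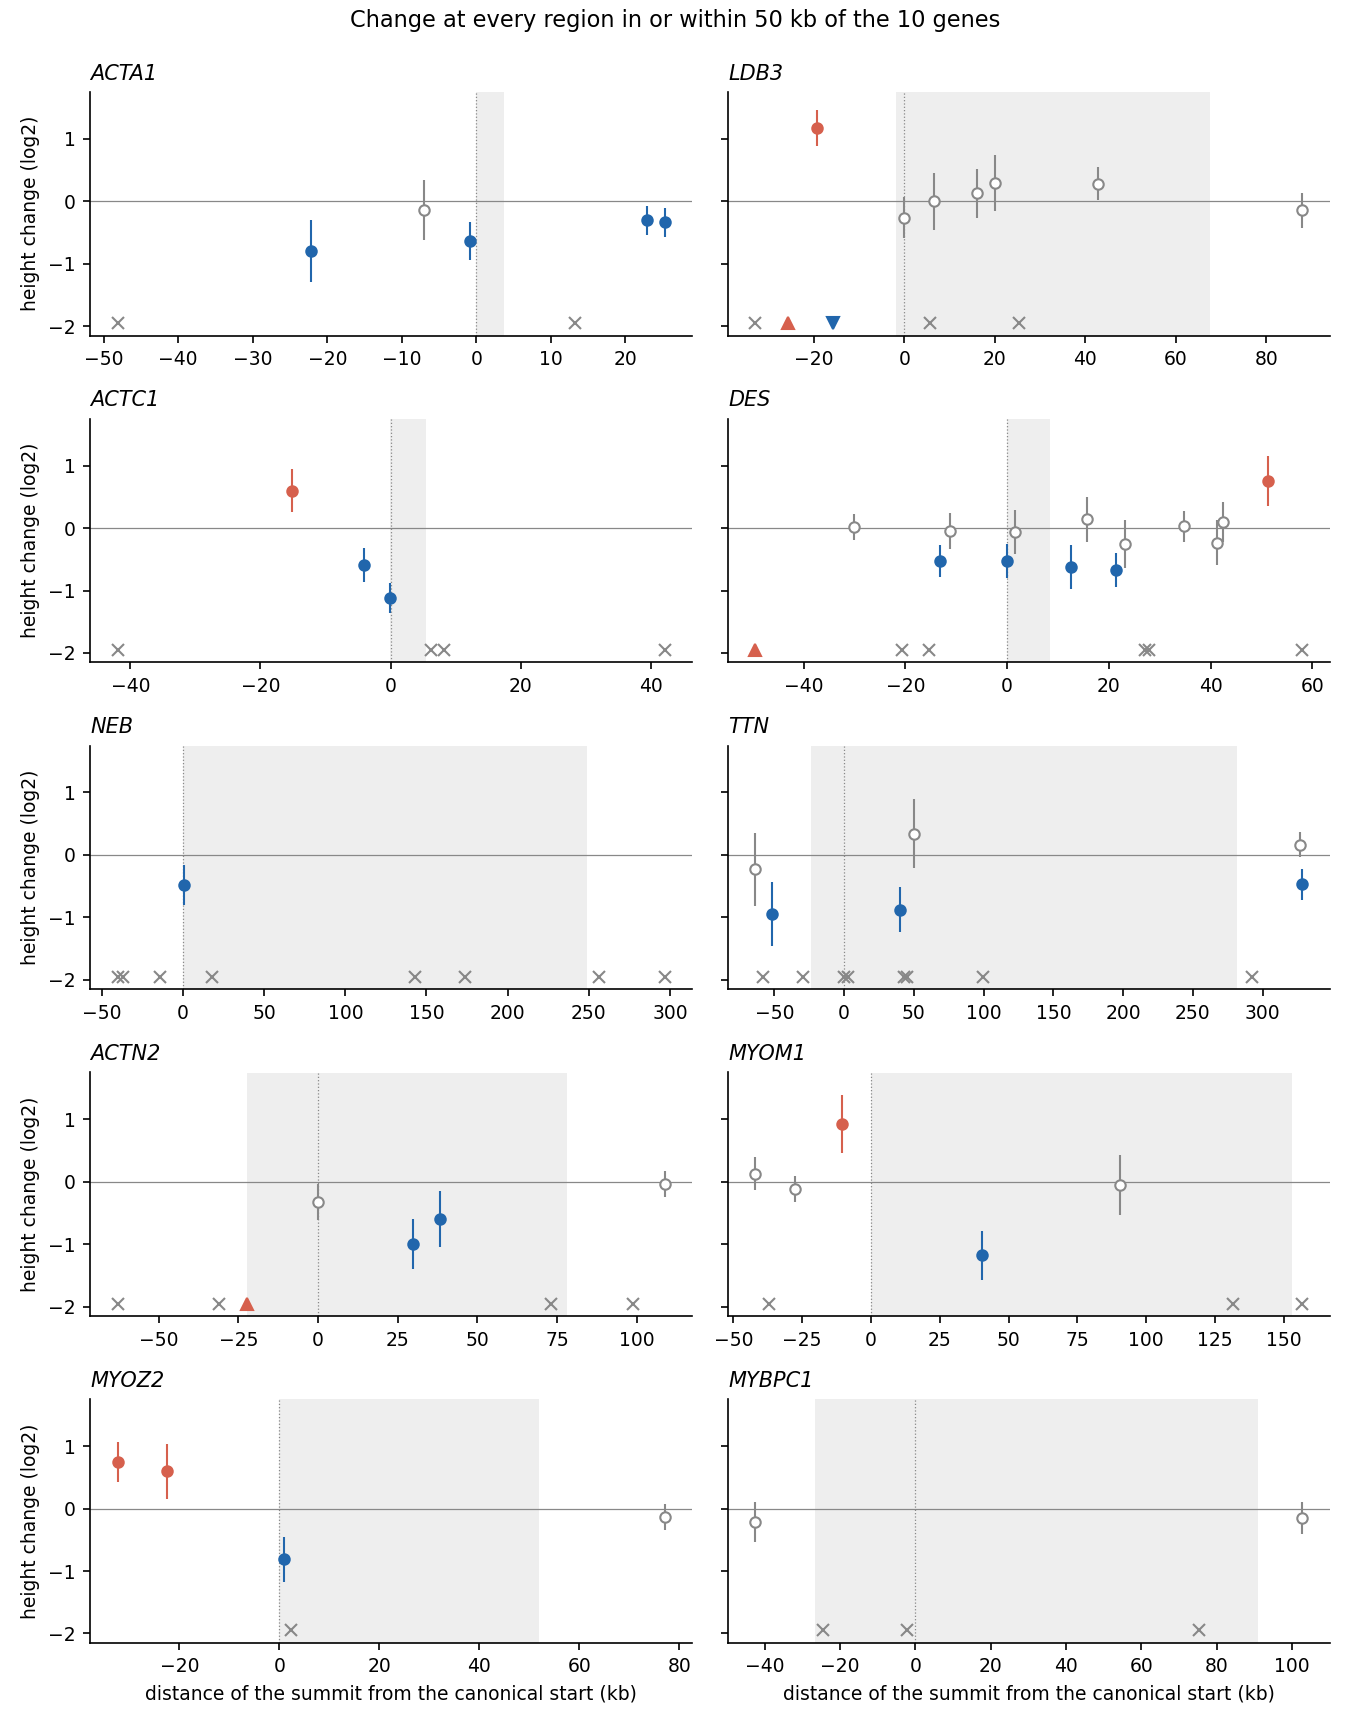
Each panel is 1 gene, with the distance of a region's summit from the start of the canonical transcript in kb on the horizontal axis, positive in the direction of transcription, and the height change (log2, bars are 95% confidence intervals from limma) on the vertical axis. Grey shading is the annotated gene. Filled blue circles fell, filled orange circles rose, and open circles did not pass the test. Marks at the bottom are regions without a peak in some library (crosses), lost (blue triangle) or gained (orange triangles). Circles at the start of ACTA1, ACTC1, NEB, MYOZ2 and DES are blue, and orange circles lie outside the shaded genes.

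The actins and nebulin form the thin filament, and 7 of their 9 regions in all 6 libraries fell and 1 rose (median -0.48). Of all regions, 12.8% fell and 11.4% rose. Without centring 4 fell and 1 rose, against 8.03% and 24.7%, with a median of -0.29. In ranks of fold enrichment 2 fell and 0 rose, against 4.67% and 4.12% of all regions. In ranks of −log10 p 3 fell and 1 rose, against 10.9% and 9.03%. ACTC1 encodes cardiac alpha-actin, which developing skeletal muscle also makes. The region over its start (chr15:34795017-34796234) had its summit 0.16 kb upstream of the start, inside the promoter shown above and 55 bp from the CArG box. Its heights were 1.93, 2.33 and 2.18 in vector replicates 1, 2 and 3 and 0.94, 1.07 and 1.06 in MyoD-deleted replicates 1, 2 and 3. All MyoD-deleted libraries were below all vector libraries, from a mean of 2.15 ± 0.20 (SD, n = 3) to 1.02 ± 0.08 (SD, n = 3), a change of -1.12 (SE 0.12, adjusted p = 3.29e-06) or 2.18-fold lower. It kept its call under every alternative tried. The region 4 kb upstream (chr15:34799249-34800658) also fell, with heights of 1.44, 1.67 and 1.67 in vector and 0.84, 0.86 and 1.3 in MyoD-deleted libraries (change -0.59, SE 0.13, adjusted p = 0.00296). By its rank of fold enrichment, however, that region stayed near percentile 12.9 of all regions in vector and 12 in MyoD-deleted libraries. A region 15 kb upstream (chr15:34810237-34811298) rose, from 0.15, -0.42 and -0.04 to 0.50, 0.66 and 0.34 (change 0.60, adjusted p = 0.013), a call lost without vector replicate 2 or MyoD-deleted replicate 1 or 2 (adjusted p = 0.0863, 0.0521 and 0.0701). Thus ACTC1 had neighbouring regions that moved in opposite directions. The other 4 of its 7 regions were absent from at least 1 library, among them one at the start of GJD2, a gap junction gene, called in 1 vector and 3 MyoD-deleted libraries.

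ACTA1 encodes the skeletal muscle alpha-actin. No region covered its start, and the nearest one (chr1:229434459-229435422) had its summit 0.79 kb upstream. There the heights were 0.55, 0.75 and 0.78 in vector and -0.05, 0.24 and -0.04 in MyoD-deleted libraries, without overlap of the groups. The change was -0.64 (SE 0.14, adjusted p = 0.00315), 1.56-fold lower. In ranks of fold enrichment it was -0.58 and did not pass the test (adjusted p = 0.0634). This region held CAGCTG, 80 bp from its summit. A region 22 kb upstream (chr1:229455665-229456674) fell from -0.79, -1.11 and -1.09 to -1.40, -1.80 and -2.18 (change -0.80, SE 0.23, adjusted p = 0.0181), a call lost without MyoD-deleted replicate 2 or 3 (adjusted p = 0.0516 and 0.0921). With the same number of peaks in each library, this region could not be tested. Downstream, regions at 23 kb and 25 kb from the start fell by 0.30 and 0.34 on the log2 scale (adjusted p = 0.0488 and 0.0318). These were the smallest of the 18 decreases, their percentile by fold enrichment went from 42.5 to 41.8 and from 42.7 to 39.4, and neither passed the test without centring (adjusted p = 0.532 and 0.413) or without vector replicate 2, vector replicate 3, MyoD-deleted replicate 1 or MyoD-deleted replicate 3 (adjusted p between 0.0692 and 0.189). The remaining region in all 6 libraries, 7 kb upstream, had a change of -0.14 (adjusted p = 0.722), so that all 5 had negative changes.

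NEB encodes nebulin, the giant protein that runs along the thin filament. Of its 9 regions only the one over its start (chr2:151733745-151734784) was called in all 6 libraries. Its heights were 1.05, 0.70 and 0.70 in vector and 0.33, 0.13 and 0.56 in MyoD-deleted libraries, without overlap. The change was -0.48 (SE 0.15, adjusted p = 0.0259), and it did not pass the test without centring, in ranks, or without vector replicate 1, MyoD-deleted replicate 1 or MyoD-deleted replicate 2 (adjusted p = 0.0869, 0.079 and 0.124). The other 8 regions were low and irregular. Their pileups ranged from 11 to 43 fragments, compared with 72 to 168 at the start. A region past the 3′ end (chr2:151477894-151478471) and one 37 kb upstream (chr2:151771420-151772185) each had a peak in 3 vector libraries and 1 MyoD-deleted library.

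**Figure D3:**
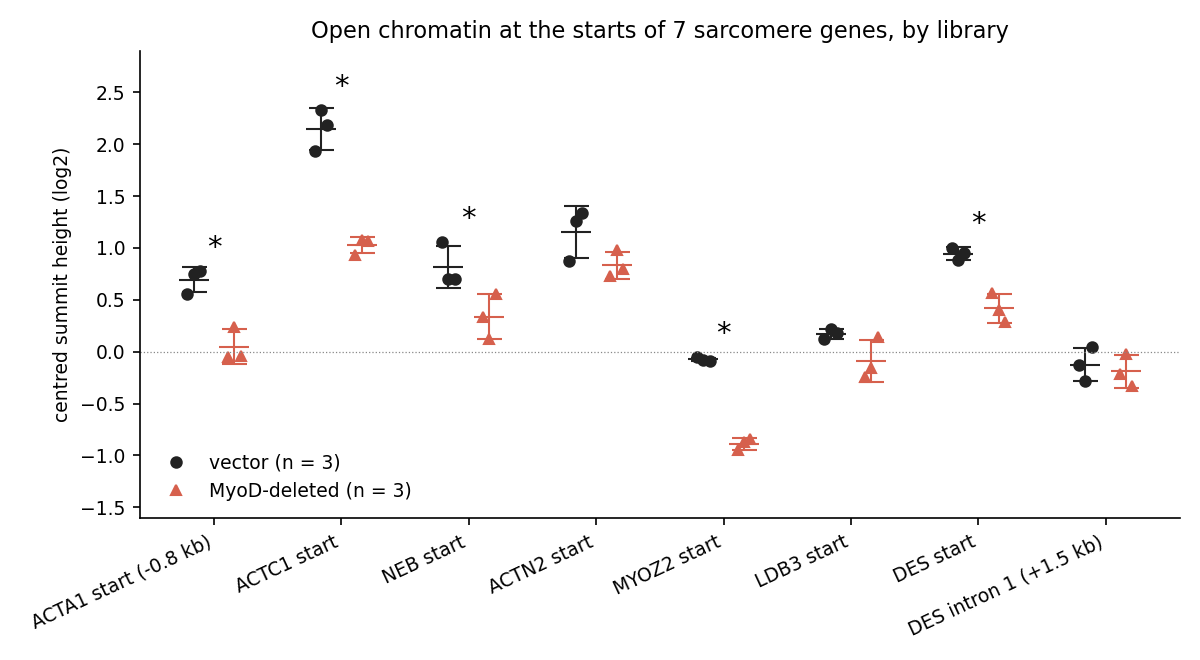
Centred summit height (log2, vertical axis) of the 8 regions within 2 kb of the start of a canonical transcript that were called in all 6 libraries. Black circles are the 3 vector and orange triangles the 3 MyoD-deleted libraries, with the mean and the SD as bars, and an asterisk marks an adjusted p under 0.05. The groups are fully apart at ACTA1, ACTC1, NEB, MYOZ2 and the DES start, and they overlap at ACTN2, LDB3 and DES intron 1. Of all regions called in all 6 libraries, 18.1% had every MyoD-deleted library below every vector library.

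The Z-disc genes and desmin had 28 regions in all 6 libraries (median change -0.06). Of these 7 (25%) fell and 4 (14.3%) rose, against 12.8% and 11.4% of all regions. Without centring 3 fell and 5 rose, against 8.03% and 24.7%, with a median of 0.13. In ranks of fold enrichment 0 fell and 4 rose, against 4.67% and 4.12%, with a median of 0.05. All 3 gained regions and the lost region of the 10 genes belonged to this group, which held 45 of the 95 regions. They made up 6.67% and 2.22% of the group, against 4.56% and 1.78% of all regions. ACTN2 encodes alpha-actinin 2, which cross-links actin filaments at the Z-disc. Its annotated gene begins 22 kb before the start of the canonical transcript. The region over the canonical start (chr1:236686135-236687517, exon 1) had heights of 0.87, 1.26 and 1.34 in vector and 0.73, 0.98 and 0.80 in MyoD-deleted libraries, and the groups overlapped. Its change of -0.32 (95% CI -0.61 to -0.03, adjusted p = 0.1) did not pass the test. Without vector replicate 1 it was -0.47 and passed (adjusted p = 0.00826), and in ranks of fold enrichment it was 0.35 (adjusted p = 0.218). In intron 1, 30 kb into the gene (chr1:236715876-236716993), heights went from -0.30, 0.03 and -0.09 to -1.27, -1.24 and -0.84. This region fell by 1.00 on the log2 scale (SE 0.19, adjusted p = 0.000935), 2.00-fold lower, and its summit lay between the pair of CAGCTG shown above. Its call was lost in ranks of fold enrichment (adjusted p = 0.12). A region in intron 4 (chr1:236724203-236725168) fell from -0.17, -0.08 and -0.49 to -0.61, -1.29 and -0.63 (adjusted p = 0.0466). That call was lost without vector replicate 1 or 2 (adjusted p = 0.063 and 0.174) or MyoD-deleted replicate 1 or 2 (adjusted p = 0.0537 and 0.235). The gained region of ACTN2 covered the outer start of the gene (chr1:236663797-236664499), with pileups of 18, 36 and 16 fragments in the MyoD-deleted libraries.

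MYOZ2 encodes myozenin 2, which binds alpha-actinin and calcineurin at the Z-disc. Its start and its upstream regions changed in opposite directions. The region over the start (chr4:119135577-119136998, summit in intron 2 of the annotation) had heights of -0.05, -0.08 and -0.09 in vector and -0.95, -0.87 and -0.84 in MyoD-deleted libraries. It was 1.76-fold lower, with a change of -0.81 (SE 0.17, adjusted p = 0.00176), and the replicates of each group lay close together. In ranks of fold enrichment its change was -0.43 and did not pass the test (adjusted p = 0.163). At 32 kb upstream (chr4:119102909-119103809), heights were -0.32, -0.52 and -0.34 in vector and 0.35, 0.31 and 0.37 in MyoD-deleted libraries. This region rose by 0.74 (SE 0.15, adjusted p = 0.00161), 1.67-fold higher, and kept its call under every alternative that held it. A region 22 kb upstream (chr4:119112957-119113775) rose from -1.34, -1.42 and -1.24 to -0.43, -0.72 and -1.04 (change 0.60, adjusted p = 0.0449). It no longer passed without vector replicate 2 or 3 (adjusted p = 0.129 and 0.0733) or without MyoD-deleted replicate 1 or 2 (adjusted p = 0.216 and 0.111). Both upstream regions held an AP-1 site and no CAGCTG.

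LDB3 encodes a PDZ and LIM domain protein of the Z-disc, also named ZASP or Cypher. Its 12 regions held 0 that fell, 1 that rose, 1 lost and 1 gained. Over the canonical start (chr10:86668069-86669135, exon 1), heights were 0.12, 0.22 and 0.18 in vector and -0.24, -0.16 and 0.14 in MyoD-deleted libraries, with overlap. The change of -0.26 (95% CI -0.59 to 0.07, adjusted p = 0.258) did not pass the test. At 19 kb upstream (chr10:86648806-86649879), heights were -0.09, -0.25 and -0.11 in vector and 0.87, 1.16 and 1.03 in MyoD-deleted libraries. This was an increase of 1.17 (SE 0.14, adjusted p = 1.2e-05), 2.25-fold higher, and it kept its call under every alternative that held it. Less than 4 kb away, the lost region (chr10:86652554-86653008) had pileups of 43, 27 and 34 fragments in vector libraries and no peak in the MyoD-deleted ones. It lay near the start of OPN4, which encodes the photopigment melanopsin, and its CAGCTG was 14 bp from the summit. The gained region, 26 kb upstream (chr10:86642597-86643368), had pileups of 17, 15 and 19 fragments and held both CAGCTG and an AP-1 site. The 4 regions in introns 2, 5 and 9 that were called in all 6 libraries had changes between -0.00079 and 0.29, and none passed the test.

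DES encodes desmin, the intermediate filament protein that links neighbouring Z-discs. It had the most regions of the 10 genes, 19, of which 13 were called in all 6 libraries, and 4 of these fell and 1 rose. At the start (chr2:219417220-219418828), heights were 1.00, 0.88 and 0.96 in vector and 0.57, 0.40 and 0.29 in MyoD-deleted libraries, without overlap. This was a change of -0.53 (SE 0.13, adjusted p = 0.00598), 1.44-fold lower, and a CAGCTG lay 43 bp from the summit. The call was lost without centring (adjusted p = 0.083) and in ranks of fold enrichment (adjusted p = 0.405). A second region 1.48 kb into the gene (intron 1) had a change of -0.07 (95% CI -0.42 to 0.29), which turned positive without centring and in ranks. The regions 13 kb upstream, 13 kb downstream of the start and 21 kb downstream of it fell by 0.53, 0.62 and 0.67 on the log2 scale (adjusted p = 0.00352, 0.0115 and 0.00112). The second of these calls was lost without vector replicate 2 or 3 or MyoD-deleted replicate 2 (adjusted p = 0.0607, 0.0699 and 0.0605). None of these calls held in ranks of fold enrichment (adjusted p = 0.316, 0.199 and 0.216). Without centring only the last of them passed (adjusted p = 0.0762, 0.0637 and 0.0149). The last (chr2:219439160-219440118) lies beyond the start of SPEG, a muscle kinase gene, and held 3 CAGCTG within 100 bp of its summit. Its heights went from 1.09, 1.40 and 1.14 to 0.62, 0.37 and 0.63. At 51 kb from the start (chr2:219469137-219469832), heights rose from -0.67, -1.16 and -1.04 to -0.30, -0.07 and -0.26 (change 0.75, SE 0.19, adjusted p = 0.0073), at the AP-1 site shown above. Of the DES regions that fell or rose, only the one at the start had DES as its nearest 5′ end. The nearest 5′ end was that of DNPEP for the decrease 13 kb upstream and of SPEG for both downstream decreases. For the increase it was that of another gene, so these counts belong to the window and not to DES alone. The gained region of DES, 49 kb upstream (chr2:219368527-219369491), had pileups of 23, 21 and 31 fragments in MyoD-deleted libraries. The 8 regions that did not pass the test included the one at the start of SPEG, with a change of 0.14 (adjusted p = 0.617).

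Titin, myomesin and myosin-binding protein C connect the myosin filament, and they had 13 regions in all 6 libraries (median change -0.15). Of these 4 (30.8%) fell and 1 (7.69%) rose, against 12.8% and 11.4% of all regions. Without centring 3 fell and 2 rose, against 8.03% and 24.7%, with a median of 0.04. In ranks of fold enrichment 2 fell and 1 rose, against 4.67% and 4.12%. TTN encodes titin, the molecular spring that spans from the Z-disc to the M-band. The region over its canonical start (chr2:178806712-178807782) was weak, with a peak in vector replicates 1 and 2 (pileups of 21 and 13 fragments) and in no other library. It therefore had no test and was not counted as lost. In intron 40 (chr2:178767122-178768241), heights were 0.27, 0.55 and 0.40 in vector and -0.24, -0.80 and -0.36 in MyoD-deleted libraries, with a change of -0.87 (SE 0.17, adjusted p = 0.0012), 1.83-fold lower. This region held 2 CAGCTG and kept its call under every alternative that held it. At 52 kb upstream of the canonical start (chr2:178858898-178859868), heights went from -0.53, -0.38 and -0.26 to -1.61, -1.72 and -0.70 (change -0.95, SE 0.24, adjusted p = 0.00783). It also held CAGCTG, and its call was lost without MyoD-deleted replicate 1 (adjusted p = 0.0537) and in ranks of fold enrichment (adjusted p = 0.17). A region between the starts of FKBP7, a chaperone of the endoplasmic reticulum, and PLEKHA3, a Golgi lipid-binding protein, lay past the 3′ end of TTN and fell by 0.47 (adjusted p = 0.00782). A region beside it did not pass the test (change 0.17, adjusted p = 0.225).

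MYOM1 encodes myomesin 1, which cross-links myosin at the M-band. It had no region within 2 kb of its start. The region in intron 5 (chr18:3179094-3180683) had heights of 0, -0.03 and -0.04 in vector and -1.10, -1.46 and -1.04 in MyoD-deleted libraries. This was a change of -1.18 (SE 0.18, adjusted p = 0.000159), 2.26-fold lower, with a CAGCTG 9 bp from the summit. The nearest region to the start, 11 kb upstream (chr18:3230296-3230939), rose from -2.02, -1.42 and -1.34 to -0.57, -0.76 and -0.66. Its change was 0.93 (SE 0.22, adjusted p = 0.00463), 1.90-fold higher, and both of these calls held under every alternative that held the region. The regions at MYL12A and MYL12B, which encode non-muscle myosin light chains, had changes of -0.11 and 0.13 that did not pass the test.

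MYBPC1 encodes the slow-type myosin-binding protein C. None of its 5 regions passed the test. The region nearest to its canonical start, 2.28 kb upstream (chr12:101592574-101593255), was called in 2 vector libraries and 1 MyoD-deleted library, with pileups of 9 to 20 fragments. The regions in all 6 libraries were one 43 kb upstream, with a change of -0.22 (95% CI -0.54 to 0.10), and one at the start of CHPT1, a gene of phospholipid synthesis, with -0.15 (95% CI -0.40 to 0.10).

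**Figure D4:**
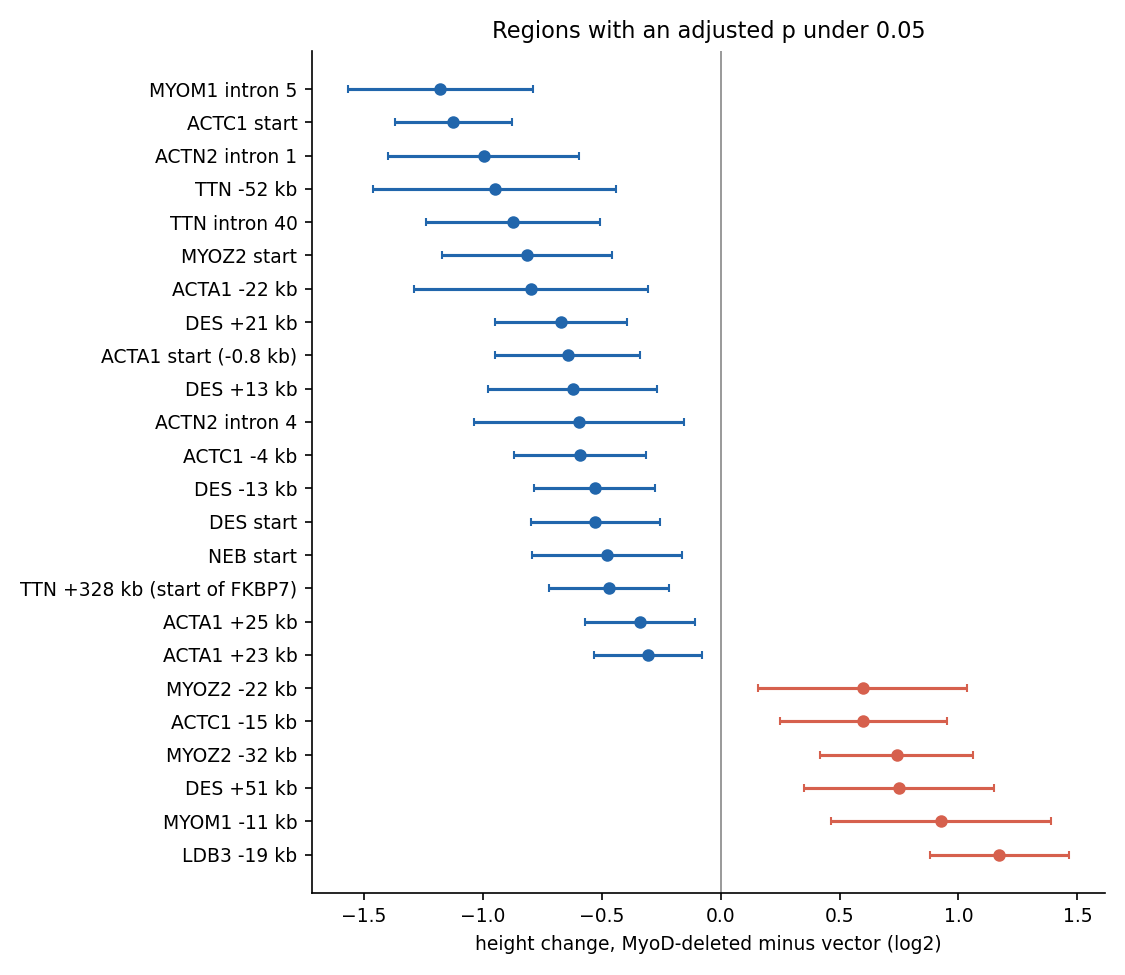
Height change with its 95% confidence interval (MyoD-deleted minus vector, log2, horizontal axis) of the 24 regions with an adjusted p under 0.05, named by gene and by intron or by distance from the canonical start. Blue regions fell and orange regions rose. Decreases range from -0.30 at ACTA1 to -1.18 in MYOM1 intron 5, and increases from 0.60 at MYOZ2 to 1.17 upstream of LDB3.

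As 1 value per gene, the median change over the regions in all 6 libraries was -0.59 at ACTC1 (3 regions), -0.48 at NEB (1 region), -0.46 at ACTN2 (4), -0.35 at TTN (6), -0.34 at ACTA1 (5), -0.19 at MYBPC1 (2), -0.07 at DES (13) and -0.05 at MYOM1 (5). It was positive at LDB3 (0.13, 7) and MYOZ2 (0.23, 4). The order of the genes did not hold under other settings. By the nearest 5′ end ACTN2 was at -0.60 and ACTC1 at -0.59, and in ranks of fold enrichment ACTC1 was at -0.05, NEB at -0.52 and TTN at -0.49. Single libraries also moved these medians. TTN was at -0.21 without MyoD-deleted replicate 2, MYBPC1 at -0.12 without vector replicate 3 and MYOZ2 at 0.12 without MyoD-deleted replicate 1. LDB3 was at 0.028 without vector replicate 1, 0.075 without MyoD-deleted replicate 3, 0.19 without vector replicate 3 and 0.22 without MyoD-deleted replicate 1. DES was at -0.15 without vector replicate 2 or MyoD-deleted replicate 2, -0.10 without vector replicate 1, -0.027 without MyoD-deleted replicate 3 and -0.0074 without vector replicate 3. MYOM1 ranged from -0.17 without MyoD-deleted replicate 3 to 0.066 without vector replicate 2, with 0.062 without MyoD-deleted replicate 1 and -0.016 without MyoD-deleted replicate 2. When the libraries were exchanged in all 20 possible ways (exact permutation test, two-sided), p was 0.1 for TTN, NEB, ACTA1, ACTC1, ACTN2, MYBPC1 and MYOZ2 and 0.6 for DES, MYOM1 and LDB3. With 3 libraries against 3, 0.1 is the smallest p possible, so no gene could pass a threshold of 0.05. The median hides opposite changes at MYOZ2 and MYOM1, where the start or an intron fell and upstream regions rose. With the window reduced to 5 kb, the median of MYOZ2 was -0.81.

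A CAGCTG E box was found no more than 100 bp from the summit in 12 of the 18 regions that fell (66.7%), in 6 of the 26 that did not pass the test (23.1%) and in 0 of the 6 that rose. Across the series it was in 57.1% of regions that fell and 15.9% of those that rose. It was in 27.8% of all regions in 6 libraries, against 36% of the 50 at the 10 genes. The shares of regions that fell, of all regions and of those that rose thus had the same order at the 10 genes as in the series. Of the 12, 5 held more than 1 copy, in TTN intron 40, ACTN2 introns 1 and 4, and at 2 regions near DES. The 6 regions that fell without it included the starts of ACTC1, NEB and MYOZ2. At NEB and MYOZ2, the summit lay 0.38 and 0.90 kb into the gene, so the E boxes of the promoters shown above fell outside the searched window. The E box CAGGTG was in 2 of the 18 (11.1%), against 29.9% of all regions that fell.

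The AP-1 site showed the reverse order, with 1 of 18 regions that fell (5.56%) and 3 of 6 that rose (50%), against 18.4% and 39.6% in the series. The TEAD site GGAATG was in 4 of 18 and 1 of 6, against 16.6% and 24.3%. CArG boxes were in 4 of the 50 regions (8%), against 0.954% of all regions in 6 libraries, at ACTC1, at LDB3 and at ACTA1 7 kb upstream. MEF2 sites were in 1 of 50 (2%), against 1.8%. Both strands were searched, a match to one E box is never a match to the other, and no test was made on these shares. Of the promoters in the RefSeq table, which held 9 of the 10 genes, those of ACTC1, ACTA1, MYOM1 and LDB3 held a CArG box in the 250 bases before the start, compared with 1.16% of 35116 promoters. At ACTC1 this held for the promoter of the canonical start and not for those of its other listed starts. CAGCTG was in those of ACTN2, MYOZ2 and MYBPC1, compared with 14% of all promoters. MEF2 sites were in those of TTN and MYOZ2, compared with 2.8%. These shares count single promoters, and some genes had more than 1.

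**Figure D5:**
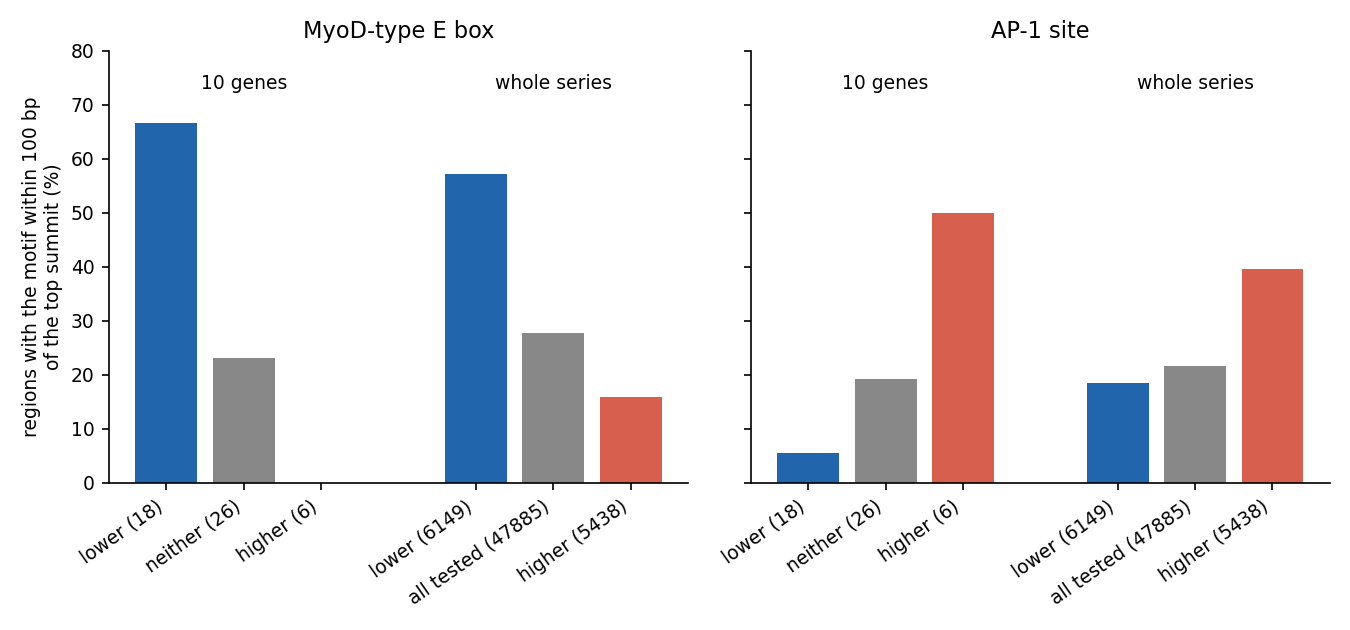
Share of regions (vertical axis, %) with the E box CAGCTG (left) or the AP-1 site (right) within 100 bp of the top summit, for the 10 genes (left bars) and all regions of the series (right bars), by height change, with the number of regions in parentheses. Grey bars are regions that did not pass the test for the 10 genes, but all tested regions for the series. The E box is in 66.7% of the 10 genes' regions that fell and in 0 of those that rose. The AP-1 site is in 5.56% and 50% of them.

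The window of 50 kb set which regions were counted. The region closest to its inner edge lay 49.7 kb from DES (chr2:219476151-219476869) and was called in 3 vector and 2 MyoD-deleted libraries. Just outside it, 51.0 kb from MYOZ2 (chr4:119084465-119085210) and 52.2 kb from NEB (chr2:151785763-151786851), lay regions called in 3 vector libraries and in no MyoD-deleted library. Farther out, a region 55.6 kb from DES had a change of 1.37 (adjusted p = 6.36e-06) and one 64.4 kb from ACTC1 a change of -0.96 (adjusted p = 4.52e-05). A wider window would thus have added both losses and an increase.

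Other genes of the sarcomere were counted as a list. In the windows of 48 further genes of the thin filament, the Z-disc, the M-band and their assembly, 582 regions lay outside those of the 10 genes, and 300 were called in all 6 libraries. Of these 33 (11%) fell and 25 (8.33%) rose, near the 12.8% and 11.4% of all regions, with a median change of 0.01. Lost regions numbered 13 (2.23%) and gained regions 23 (3.95%). CSRP3, a LIM protein of the Z-disc, had 2 lost regions of 10, and LMOD3, which nucleates thin filaments, 2 of 9. ANKRD2, a titin-associated protein, had 1 of 13 and is named first by symbol among several genes with 1. At CSRP3 one of them (chr11:19218624-19219288) had heights of -0.95, -1.72 and -1.34 in the vector libraries. PALLD, which encodes the actin-binding palladin, had 4 gained regions of 54, the most regions of any gene in the list, and TPM1, a tropomyosin gene, had 3 of 15. CAPZA2, a subunit of the actin capping protein, had 1 and is likewise named first by symbol. At TPM1 the highest (chr15:63023293-63024081) had heights of -1.40, -0.72 and -1.0 in the MyoD-deleted libraries. The difference between the 10 genes and this list was not tested.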

How the data were processed

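RH30 cells were profiled by ATAC-seq, with 3 libraries per group (vector and MyoD-deleted, from the sample labels). Mapping to hg38 with Rsubread, selection of proper pairs and peak calling per library with MACS2 were done by the authors. The submitters' processing notes also name bcl2fastq 2.20 and FastQC. Each deposited list gives a peak's score (10 times its −log10 q), its fold enrichment, which is a ratio of pileup to local background within the library, its −log10 p and −log10 q-value, and the offset of its summit. None is normalized between libraries, replicates were not pooled, and the authors' own comparison on read counts was not used here. Precision is limited by 3 libraries per group and an unknown read total per library, for which the labels state only a shared minimum.

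One mitochondrial peak per library was left out. Pileup and background were recovered for 100% of peaks from fold enrichment (with a pseudocount of 1) and −log10 p under a Poisson model. Overlapping or adjoining peaks were merged into regions. Genes came from GENCODE 44. Heights were tested with limma 3.58.1 (lmFit, eBayes with a trend) in R 4.3.3, and gene medians by an exact permutation test. No block was used in the main test, since the sources used here name no pairing of the libraries. Python 3.11.15, SciPy 1.17.1 and pandas 2.3.3 were used, and the steps were tested on simulated data. A region without a peak in a library may still hold reads, and a height rests on the summit alone.

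All 10 genes are named, each with the region at or nearest to its start and its lost, gained and called regions. Of the other sarcomere genes up to 3 per direction are named, those with the most lost or gained regions. The members, lists and tests were chosen with earlier results of these data known. The alternatives were a −log10 q of 5 or more, the same number of peaks in each library, at least 50% coverage of a region, other windows, other scalings, regions in at least 2 libraries per group, the replicate block and each library left out. Leaving out starts of neighbouring genes was added after the data were seen.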

Additional observations from a re-analysis of the deposited data

How the results depend on the processing

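Of the 24 regions called at the 10 genes, none changed direction under any alternative, and 7 kept their call under every alternative that held them (TTN intron 40, the ACTC1 start, MYOM1 intron 5, MYOM1 11 kb upstream, MYOZ2 32 kb upstream, LDB3 19 kb upstream and DES at 51 kb). Ranks of fold enrichment lost 15 of the calls (4 lower in place of 18), no centring 8 (10 lower), ranks of −log10 p 6, −log10 q of at least 5 and equal numbers of peaks 2 each, and at least 2 libraries per group 1. With equal numbers of peaks, 1 further called region (ACTA1 22 kb upstream) could not be tested, and 15 regions were lower. Among the calls lost in ranks of fold enrichment were the starts of ACTA1, NEB, MYOZ2 and DES and the region in ACTN2 intron 1. The causes were not tested. Within 5 kb, 11 of the 20 regions in all 6 libraries were lower and 0 higher, against 12.8% and 11.4% of all regions. There 0 were lost and 1 was gained. By the nearest 5′ end, 2 were lost and 1 gained. Without starts of neighbouring genes, 0 of 84 were lost and 3 gained. Over all regions, 1.78% were lost and 4.56% gained, but shares within 5 kb or by the nearest 5′ end were not calculated. With equal numbers of peaks 4 were lost and 2 gained. Leaving out 1 library gave 1 to 3 lost, 3 to 6 gained, 13 to 18 lower and 4 to 7 higher regions. Of all regions, 9.5% to 14.2% were then lower and 7.33% to 13.3% higher. Lost and gained shares of all regions were not counted where peaks or libraries were left out. Lost regions were 3 without vector replicate 3 and 2 without MyoD-deleted replicate 1 or 3, and gained regions 6 without vector replicate 1 and 5 without MyoD-deleted replicate 2 or 3. With the replicate block, 16 regions were lower and 5 higher, against 12.1% and 10.4% of all regions. There 3 calls were lost (ACTA1 23 kb downstream, ACTN2 intron 4 and MYOZ2 22 kb upstream). The sources used here name no pairing of the libraries. Deviations of same-numbered libraries correlated at -0.04, -0.20 and 0.09, and those of differently numbered libraries between -0.23 and 0.26. Such correlations cannot decide whether libraries were prepared in pairs.

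Reversed signs were found only among values that had not passed the test. The gene median became -0.81 at MYOZ2 within 5 kb, and 0.021 at NEB with at least 2 libraries per group. Without centring it was 0.13 at DES, 0.14 at MYOM1 and 0.0055 at MYBPC1, and at DES it was 0.051 in ranks of fold enrichment and 0.019 in ranks of −log10 p. At MYOM1 it ranged from -0.17 to 0.066 with 1 library left out, and was 0.066 without vector replicate 2 and 0.06 without MyoD-deleted replicate 1. The region in DES intron 1 was at 0.13 without centring, 0.47 in ranks of fold enrichment, 0.18 in ranks of −log10 p and -0.15 to 0.018 with 1 library left out (0.018 without vector replicate 3, 0.006 without MyoD-deleted replicate 3), and the ACTN2 start at 0.35 in ranks of fold enrichment. The read total of each library is unknown, so a missing peak does not show closed chromatin.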
